A study of Mus musculus with 18 samples.

Results

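H3K36me2 islands inside very long genes were taken from a deposited table of 13409 regions enriched for dimethylation of lysine 36 on histone H3 in mouse epidermis. An island was included when it overlapped the body of a protein-coding gene of 300 kb or more on chromosomes 1 to 19 and lay more than 1 kb from every protein-coding gene end. This rule, which uses position alone, gave 1143 islands of the 12908 autosomal islands, inside 205 genes. The data came from CUT&RUN on single-cell suspensions of epidermis. In this assay a nuclease held by an antibody releases the DNA that carries a chromatin mark, which is then sequenced. All mice carried LSL-H3K36M, a construct for histone H3 with methionine in place of lysine 36 behind a stop cassette that Cre removes. The Krt14-Cre(+); LSL-H3K36M mice, in which the keratin 14 promoter drives Cre in basal keratinocytes and their descendants, are called mutant, and the Krt14-Cre(-); LSL-H3K36M mice are called WT. Each genotype had 3 H3K36me2 libraries, each with a sample code of its own in the labels, but the island table holds 1 pool of reads per genotype, of 59539924 mutant and 47361190 WT reads. Age and sex are not stated in the labels, and all positions are on GRCm38.

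H3K36me2 is laid down mainly by the NSD family of methyltransferases and covers broad stretches of intergenic and intronic chromatin. H3K36M blocks H3K36 methyltransferases. Chromatin that carries H3K36 methylation is a poor substrate for PRC2, the complex that writes the repressive mark H3K27me3, so the marks tend to exclude each other. Inside transcribed genes H3K36me2 gives way to H3K36me3 along the body, and very long genes, most of whose length is intron, are rich in neuronal adhesion molecules, channels and common fragile sites.

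The islands were also seen against promoter sequence, because a very long gene often has start sites deep in its body. Of the 1091 islands on the chromosomes of the promoter table used, 32 held a RefSeq promoter window, which spans 250 bases before to 50 bases after an annotated start. These islands held 38 windows with a median of 2.5 CpG, and 1 window (2.63%) had 15 CpG or more. The 798 windows inside all genes of 300 kb or more, by the same distance rule, had a median of 4 CpG and 12.3% reached 15. The 5′ promoters of 118 of the 205 genes had a median of 22 CpG and 66.9% reached 15. Only 6 islands held an internal start of the long gene itself, and 5 of these were lower in the mutant, beside 61.5% of the 1091 islands. With 6 islands, these shares cannot be set apart. Of the 6 starts, those of Vav3, in an island called neither way, and Stard13, in a lower island, are not printed. Internal promoters of Prickle2, Sox6, Zbtb20 and Tiam1 follow, together with the starts of 2 predicted genes that lie in islands higher in the mutant, Gm35707 within Itpr2 and Gm32064 within Scfd2. Each is the sense strand of the start from RefSeq GRCm38.p6, written 5′ to 3′, with every CpG in capitals.
Prickle2 internal start, chr6:92567317-92567616, minus strand: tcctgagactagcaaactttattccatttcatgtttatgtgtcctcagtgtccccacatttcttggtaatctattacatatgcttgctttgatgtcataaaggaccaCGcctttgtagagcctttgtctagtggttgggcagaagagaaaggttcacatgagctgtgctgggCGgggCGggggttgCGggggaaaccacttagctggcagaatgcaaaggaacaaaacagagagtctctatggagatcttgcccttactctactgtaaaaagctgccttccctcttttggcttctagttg
Sox6 internal start, chr7:115995037-115995336, minus strand: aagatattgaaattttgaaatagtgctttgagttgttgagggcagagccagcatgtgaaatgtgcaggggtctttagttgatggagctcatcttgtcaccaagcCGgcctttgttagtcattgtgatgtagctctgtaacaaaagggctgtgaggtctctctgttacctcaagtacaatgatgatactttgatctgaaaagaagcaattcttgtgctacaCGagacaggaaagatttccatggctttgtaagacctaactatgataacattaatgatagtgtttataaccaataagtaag
Zbtb20 internal start, chr16:43247034-43247333, plus strand: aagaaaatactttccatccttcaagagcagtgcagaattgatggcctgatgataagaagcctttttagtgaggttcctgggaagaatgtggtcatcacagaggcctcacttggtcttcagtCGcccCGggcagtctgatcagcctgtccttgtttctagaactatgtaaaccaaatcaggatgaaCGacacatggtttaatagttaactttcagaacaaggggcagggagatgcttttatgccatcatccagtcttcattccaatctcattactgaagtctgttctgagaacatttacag
Tiam1 internal start, chr16:89974650-89974949, minus strand: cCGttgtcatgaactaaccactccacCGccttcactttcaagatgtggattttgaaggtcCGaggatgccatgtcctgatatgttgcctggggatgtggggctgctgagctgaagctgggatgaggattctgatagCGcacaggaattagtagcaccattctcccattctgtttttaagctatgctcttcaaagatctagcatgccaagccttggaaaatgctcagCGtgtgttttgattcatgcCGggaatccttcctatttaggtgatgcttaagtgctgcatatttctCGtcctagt
Gm35707 start within Itpr2, chr6:146197153-146197452, plus strand: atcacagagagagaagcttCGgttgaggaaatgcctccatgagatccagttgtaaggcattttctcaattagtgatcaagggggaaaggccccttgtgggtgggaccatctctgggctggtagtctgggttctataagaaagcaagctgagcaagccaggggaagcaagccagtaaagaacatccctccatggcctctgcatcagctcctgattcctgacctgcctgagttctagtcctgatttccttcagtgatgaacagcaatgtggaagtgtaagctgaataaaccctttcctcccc
Gm32064 start within Scfd2, chr5:74316315-74316614, plus strand: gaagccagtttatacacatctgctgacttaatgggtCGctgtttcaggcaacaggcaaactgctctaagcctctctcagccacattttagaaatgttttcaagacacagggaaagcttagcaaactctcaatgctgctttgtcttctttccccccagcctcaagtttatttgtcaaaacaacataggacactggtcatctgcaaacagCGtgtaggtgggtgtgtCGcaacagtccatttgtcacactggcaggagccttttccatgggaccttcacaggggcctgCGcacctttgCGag

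The Prickle2 window, from a gene for a planar cell polarity protein, has 4 CpG and lay in an island with 136 mutant and 201 WT reads. The Sox6 window, from a transcription factor gene, has 2 CpG, and its island had 119 and 144 reads. The Zbtb20 window, from a gene for a zinc finger repressor, has 3 CpG, and its island had 195 mutant and 216 WT reads. The Tiam1 window, from a gene for a Rac exchange factor, has 7 CpG, and its island had 226 and 214 reads. At the deposited depths the mutant pool is the larger, so each of these 4 islands was lower in the mutant in RPM (reads scaled to the depth of the pool). The Gm35707 window has 1 CpG, and its island had 267 mutant and 146 WT reads, while the Gm32064 window has 5 CpG in an island with 128 and 68 reads. Both were higher in the mutant. Over the 32 promoter-holding islands, 18 were lower and 4 higher, beside 653 and 142 of the 1059 islands without a promoter window.

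The first comparison asked whether H3K36me2 inside very long genes differed between the mutant and the WT pool. An island was called at the authors' FDR under 0.05 in their SICER2 test, which compares pools of reads and not animals. Of the 1143 islands, 701 were lower in the mutant (61.3%, exact 95% binomial interval 58.4 to 64.2), beside 58.1% of all 13409 islands. A further 155 were higher (13.6%, 11.6 to 15.7), beside 17.3% of all islands, and 287 were called neither way. Over the 12908 autosomal islands, from which these islands come, 60.2% were lower and 17.3% higher. The shares in very long genes were thus close to those of the whole table and of the autosomes. The intervals cover counting error only, and islands of one gene are not independent. In a mixed suspension, fewer cells that carry the mark and less mark per cell cannot be told apart.

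The islands spanned 200 to 44600 bp with a median of 5200 bp, and covered 6.88 Mb in all. They held 41 to 2136 mutant reads with a median of 175, and 27 to 1744 WT reads with a median of 171. Summed over the islands there were 241088 mutant and 228723 WT reads, a ratio of 0.838 in RPM. Islands called lower had a median deposited fold of 0.713, and those called higher of 1.34, in the authors' deposited table. The change was thus partial in nearly every island: the ratio of RPM ran from 0.380 in Samd12 to 2.03 in Dock1.

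**Figure D1:**
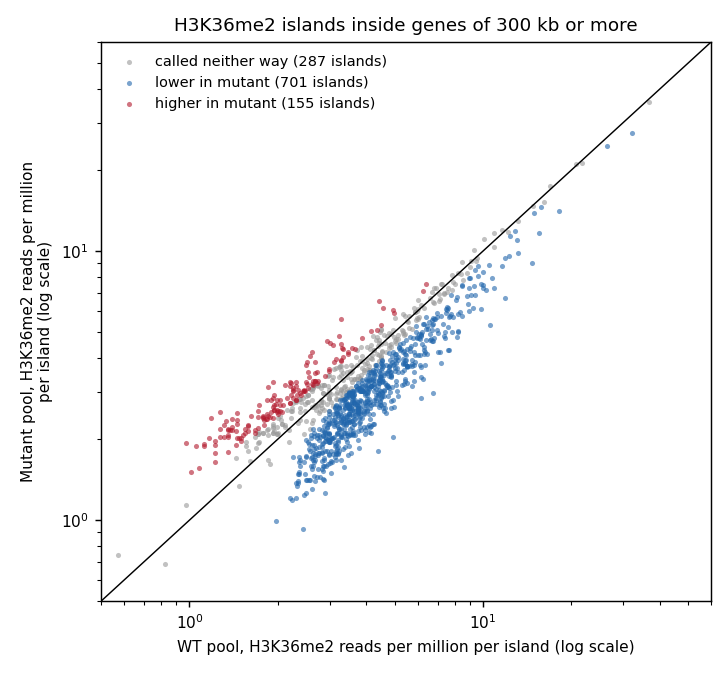
H3K36me2 RPM in the WT pool (x axis, log scale) and the mutant pool (y axis, log scale) for each of the 1143 islands, coloured by the authors' call, with the line of equality. The 701 lower islands lie below the line and the 155 higher islands above it, mostly at low levels.

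The balance of calls depends on how the pools are scaled. Over all 13409 islands the median log2 fold lay at −0.30, and over the 12908 autosomal ones at −0.32. Over the islands in very long genes it lay at −0.31, with quartiles of −0.55 and 0.02. With an exact binomial test of the pools adjusted over all islands, 559 of the 1143 (48.9%) were lower, beside 47.0% of all islands. By this test 79 (6.91%) were higher, beside 10.2%. Of the autosomal islands, 48.8% were lower and 10.4% higher. With the same test relative to the median island, 159 were lower, beside 13.4% of all, and 282 were higher, beside 27.4%. Lower and higher below mean at the deposited depths, and only the order among islands is free of this scaling.

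Against other islands the very long genes held an intermediate place. Islands inside shorter genes, chosen by the same distance rule, had a median log2 fold of −0.04, with 39.0% of 4683 lower and 30.3% higher. Islands outside gene bodies had a median of −0.47, with 78.3% of 5559 lower and 7.34% higher. Summed over islands, the ratio of RPM was 0.838 inside very long genes and 0.802 outside genes. The difference between very long and shorter genes was −0.28 on the log2 scale. It has no test across animals, since each genotype is 1 pool.

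The fold went down with gene length over the whole range. The median log2 fold was 0.09 for islands in genes under 50 kb, 0.02 from 50 to 100 kb, −0.09 from 100 to 200 kb and −0.11 from 200 to 300 kb. Within very long genes it was −0.22 for the 431 islands in genes of 300 to 400 kb and −0.28 for the 445 islands in genes of 400 to 600 kb. It was −0.50 for the 163 islands in genes of 600 to 1000 kb. For the 104 islands in the 18 genes of 1000 kb or more it was −0.59, below the median outside genes. The lower share rose over these 4 classes from 53.6% through 58.4% and 75.5% to 83.7%. The higher share went from 16.7% through 14.2% and 7.36% to 7.69%. The median of the gene medians followed the same order, at −0.29, −0.30, −0.50 and −0.66, so the order did not rest on genes with many islands.

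**Figure D2:**
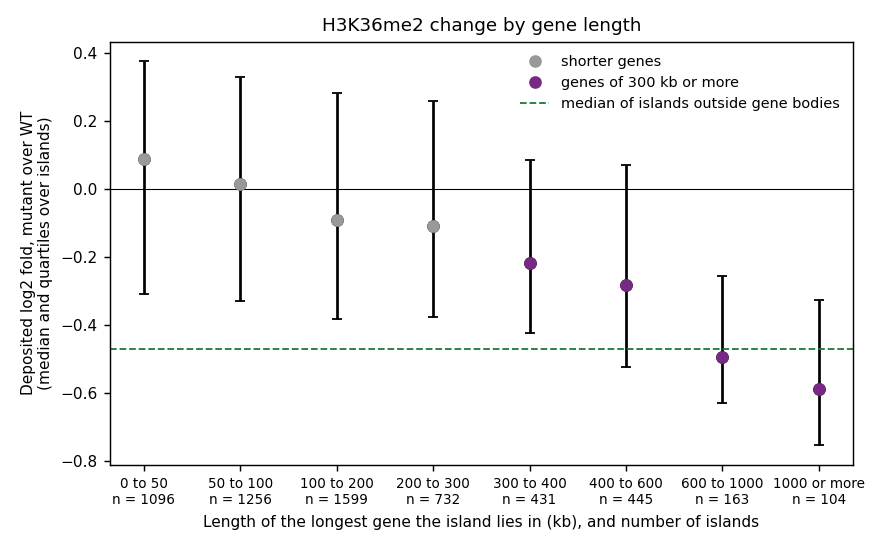
Median deposited log2 fold of H3K36me2, mutant over WT, with quartiles as bars (y axis), by the length of the longest gene an island lies in (x axis, kb, with the number of islands). The median fell from 0.09 in genes under 50 kb to −0.59 in genes of 1000 kb or more, and the dashed line marks the −0.47 of islands outside gene bodies.

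Of the 8 higher islands in genes of 1000 kb or more, 7 lay in 1 gene, Tenm2, which was singled out after its values were seen. Without Tenm2 the class had a median of −0.65, with 93.3% of 90 islands lower and 1 higher. Without Macrod2, the gene with the most islands in the class, the median was −0.62. At the lower edge the islands in genes of 300 to 350 kb had a median fold of 0.860 and those of 250 to 300 kb 0.887. The genes just inside 300 kb were Cmss1, Arhgef28 and Galnt18, with ratios of 0.919, 0.793 and 1.02, and just outside were Klhl29, AW554918 and Akap13, with ratios of 1.44, 0.872 and 0.883.

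Most very long genes held no island at all: 328 of the 533 autosomal genes of 300 kb or more had none by this rule. The share with an island was 38.5%, 39.4%, 40.0% and 32.7% over the same 4 length classes. Per Mb of gene body, over all genes of a class with or without an island, the number of islands fell from 6.39 at 300 to 400 kb to 4.78, 2.33 and 1.42. The longest genes without an island included Ptprd, Cntnap2, Lrp1b, Csmd1 and Nrxn3, genes of neuronal adhesion and receptor molecules. Per gene, over the 107 genes with 4 islands or more, the log2 ratio of summed reads had a Spearman correlation of −0.42 with gene length and 0.41 with islands per 100 kb. Density itself fell with length, and length and density cannot be told apart here. Transcription was not measured in these data.

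Islands deep inside a gene had the lower folds overall. Islands 100 kb or more from the nearest gene end had a median log2 fold of −0.36 and nearer ones −0.25, a difference of −0.12. That difference was 0.04, in the opposite direction, when only genes of 500 kb or more were kept. In genes of 300 to 400 kb the far and near medians were −0.30 and −0.15, and at 400 to 600 kb −0.29 and −0.27. At 600 to 1000 kb they were −0.51 and −0.44. At 1000 kb or more the far islands had a median of −0.54, beside −0.59 for all islands of that class. The 200 islands at 200 kb or more from an end had a median of −0.47, but such islands exist only in the longest genes. In the 158 genes whose strand was known, the median over 5 equal parts of the body from the 5′ end was −0.39, −0.30, −0.33, −0.26 and −0.23. The higher share over these parts went from 10.4% to 19.1%. In 44 genes with 8 islands or more, the islands nearer the 3′ end had a higher median fold than the same number nearer the 5′ end in 26 genes and a lower one in 18.

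Width and level moved with the call. The narrowest 247 islands, of 3800 bp or less, had a median log2 fold of 0.06 with 31.2% higher, and the widest 223 had 3.59% higher. Narrow islands were more often higher in the other sets too, at 50.6% inside shorter genes and 17.8% outside genes in the same width range. By mean level per kb, the lowest 229 islands had a median of −0.51 and the highest 229 of −0.16. Both kinds of call were more frequent in the lowest group, with 78.6% lower and 16.2% higher, beside 48.5% and 6.99% in the highest. Inside shorter genes the order of the medians was the reverse, at 0.30 in the lowest of the same level ranges and −0.08 in the highest. The level is the mean of the mutant and WT pools, so it is made of the same values as the fold. Only called islands are in the table, so the mark elsewhere in these genes is not seen. An island with a low mean may thus have been called through the pool in which it is higher, which favours unequal pools at low level. How much of the order by level, in very long or shorter genes, comes from this was not tested. No conclusion is drawn from level.

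Neighbouring islands of one gene moved together. Over 939 neighbouring pairs the log2 folds had a Spearman correlation of 0.58, and of the 550 pairs in which both islands were called, 488 (88.7%) had the same direction. This share was 91.3% for gaps under 10 kb and 87.9% for gaps of 50 kb or more. Of the 1143 islands 701 were lower and 155 higher, so many pairs share a direction through this imbalance alone. The share that it would give was not computed. The SD of the log2 fold was 0.25 between genes and 0.30 within genes, so 40.4% of the variance lay between genes. The counting error of a median island was 0.157, so spread within genes was larger than counting error gives.

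Summing reads over each gene's islands gave 138 of the 205 genes lower in the mutant (67.3%), beside 31.8% of the 2579 genes of any length, and 14 higher (6.83%), beside 20.7%, by an exact binomial test adjusted over the 2579 genes. Relative to the median island, 66 were lower, beside 9.00% of all, and 64 were higher, beside 50.8%. This test too compares pools of reads, and a gene with many islands has more reads and passes more easily. Among the 107 genes with 4 islands or more, which hold 974 of the islands, every island was lower in 22 genes, none was higher in 57, none was lower in 3, and 47 held both kinds.

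The genes with every island lower included several of the longest. Dlg2 (chr7:90476188-92449246), which encodes a synaptic scaffold protein and spans 1973 kb, had 11 of 11 islands lower, with 31.6 mutant and 51.5 WT RPM and a ratio of 0.613 (95% interval 0.577 to 0.651). Fhit (chr14:9550092-11162061), a hydrolase gene at a common fragile site, had 10 of 10 lower, with 25.9 and 42.8 RPM and a ratio of 0.606 (0.567 to 0.648). Its islands lay from 448 to 1397 kb from the 5′ end. The lowest, 1373 kb in, had 177 mutant and 319 WT reads, a ratio of 0.441 (0.365 to 0.532).

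Auts2 (chr5:131437333-132543220), whose protein joins a variant Polycomb complex, had 11 of 11 islands lower, from 25.3 mutant and 38.6 WT RPM, a ratio of 0.655 (0.612 to 0.702). Rora (chr9:68653404-69388246), which encodes a nuclear receptor, had 13 of 13 lower, from 31.0 and 49.4 RPM, a ratio of 0.628 (0.590 to 0.667). The 13 islands of Rora lay from 284 to 566 kb from its 5′ end, and their ratios ranged from 0.538 to 0.789. The other genes of this kind include Ptprn2, Samd12 and Trpm3, and Immp2l had 3 of 4 islands lower.

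The 5 lowest ratios among genes with 4 islands or more were 0.552 in Immp2l, a gene for a mitochondrial inner membrane peptidase subunit, 0.578 in Samd12, 0.590 in Ptprn2, a receptor-type phosphatase gene of secretory vesicles, 0.593 in Trpm3, a cation channel gene, and 0.606 in Fhit. The lowest single island lay in Samd12, with 55 mutant and 115 WT reads, a ratio of 0.380 (0.271 to 0.529). The lowest island of Immp2l had 121 and 233 reads, a ratio of 0.413 (0.329 to 0.517). In Ptprn2 the lowest had 108 mutant and 207 WT reads, and in Arhgef28, a guanine nucleotide exchange factor gene, 75 and 137. None of these islands was near absent in the mutant pool.

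Adgrv1 (chr13:81095068-81633391), the gene for a very large adhesion receptor, had 24 islands, of which 23 were lower and none higher. Together they held 4681 mutant and 5718 WT reads, 78.6 and 121 RPM, a ratio of 0.651 (0.626 to 0.677). All lay between 250 and 525 kb from the 5′ end, in the 3′ part of the 538 kb gene. The ratios ran from 0.504 to 0.853. The widest, of 18800 bp at 481 kb, had 536 mutant and 696 WT reads, a ratio of 0.613 (0.546 to 0.687).

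Macrod2 (chr2:140395303-142392966), a gene for a hydrolase of ADP-ribose on proteins that lies at a fragile site, had 24 islands over 1998 kb, with 21 lower and 1 higher. They held 89.4 mutant and 117 WT RPM, a ratio of 0.766 (0.737 to 0.795). The first 7 islands, 142 to 256 kb from the 5′ end, had ratios of at most 0.653. The next islands out to 599 kb had ratios from 0.706 to 0.822. The widest, of 34200 bp at 892 kb, had 1461 mutant and 1250 WT reads, and its ratio of 0.930 (0.862 to 1.003) included equality although the authors' test called it lower. The 1 higher island, at 938 kb, had 98 and 58 reads, a ratio of 1.34 (0.962 to 1.89).

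**Figure D3:**
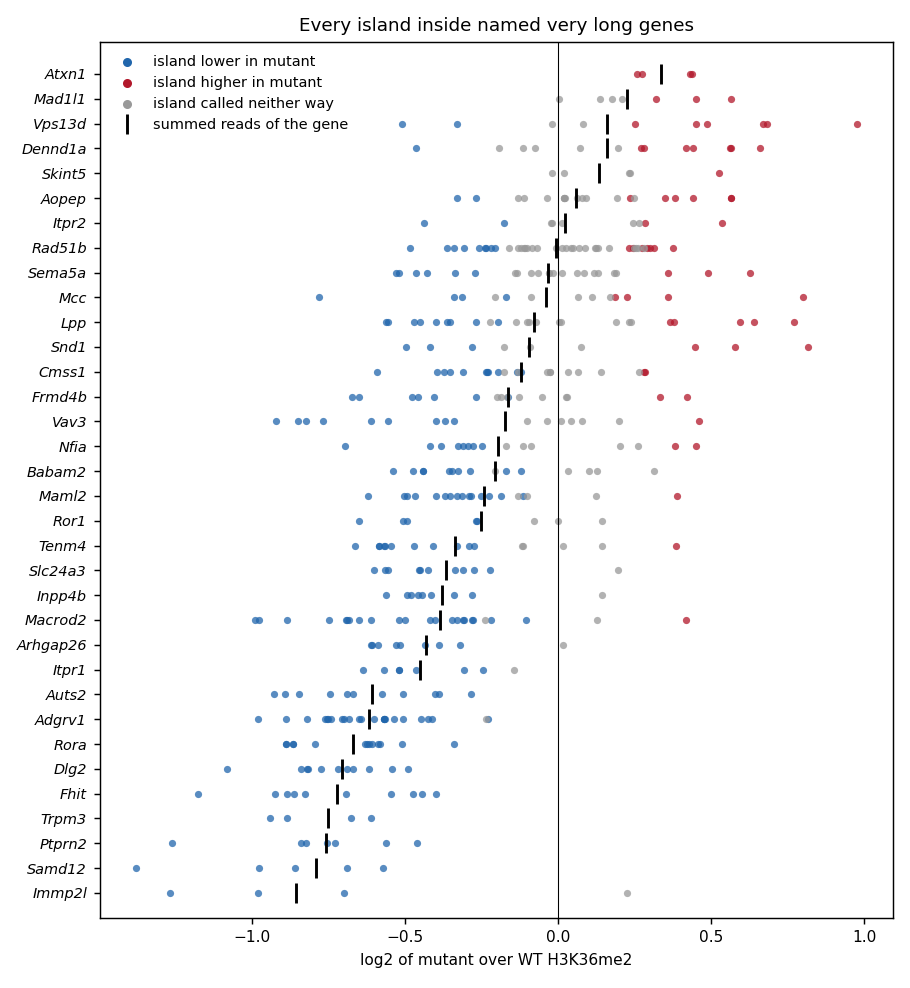
Log2 fold of H3K36me2, mutant over WT (x axis), of each island (points, coloured by the authors' call) in named genes with 4 islands or more (rows), ordered by the ratio of summed reads (black ticks). Genes run from Immp2l, with a ratio of 0.552, to Atxn1, with a ratio of 1.26, and many in the middle hold lower and higher islands together.

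The 14 genes with higher summed reads include 5 named by their ratio or their number of islands. Atxn1 (chr13:45549755-45964991), whose protein ataxin-1 binds the repressor Capicua, had 4 of 4 islands higher, from 11.2 mutant and 8.91 WT RPM, a ratio of 1.26 (1.11 to 1.43). Its 4 islands had 125, 166, 235 and 143 mutant reads beside 73, 109, 156 and 84 WT reads. Mad1l1 (chr5:140008689-140321608), a spindle checkpoint gene, had 3 of 7 islands higher and none lower, from 19.7 and 16.8 RPM, a ratio of 1.17 (1.07 to 1.28). Dennd1a (chr2:37798990-38287410), a gene for an activator of the Rab35 GTPase, had 7 of 13 higher and 1 lower, a ratio of 1.12 (1.05 to 1.19). The other genes with higher summed reads were Vps13d, Aopep, Dock1, Exoc6b, Apbb2, Arl15, Cacna2d3, Slc14a2, Atrnl1, Msi2 and Trappc9.

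Skint5, of the Skint family expressed in epidermis and thymus, had 1 of 5 islands higher and none lower. Its summed ratio was 1.10 (0.984 to 1.22), which includes equality. The highest single islands lay in Dock1, a Rac exchange factor gene, with 143 mutant and 56 WT reads, in Vps13d, with 150 and 60 reads, and in Exoc6b, an exocyst gene. Dock1 and Exoc6b had 3 islands each, all higher, with summed ratios of 1.65 (1.41 to 1.94) and 1.62 (1.37 to 1.93).

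Several genes changed direction along their length. Vav3 (chr3:109340465-109685694), a gene for a guanine nucleotide exchange factor, had 16 islands with a summed ratio of 0.887 (0.848 to 0.927). Its first 7 islands, from 11 to 134 kb after the 5′ end, were all lower, with ratios from 0.525 to 0.774. From 190 kb on, only 2 of 9 were lower, and the last, at 334 kb, was higher, with 269 mutant and 155 WT reads, a ratio of 1.38 (1.13 to 1.69). The widest island, of 31600 bp at 233 kb, had 1265 and 1031 reads, a ratio of 0.976 (0.898 to 1.06). It held an internal Vav3 start with 6 CpG. The 8 islands nearer the 5′ end had a median fold of 0.620, and the 8 nearer the 3′ end 0.991.

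Tenm2 (chr11:36006656-37237053), a gene for a teneurin adhesion receptor, had 14 islands with a summed ratio of 1.05 (0.995 to 1.11). The first 3, from 591 to 801 kb after the 5′ end, were lower, with ratios of 0.595, 0.752 and 0.771. Of the 10 islands from 901 to 1149 kb, 7 were higher and none lower. The island at 901 kb had 270 mutant and 143 WT reads, with an interval of the ratio from 1.22 to 1.85. Tenm4, its paralog, had 16 islands with the first 8 all lower and a summed ratio of 0.791 (0.754 to 0.831), and its other 8 islands had a median fold of 0.922 beside 0.674 for the first 8.

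Vps13d (chr4:144871045-145195037), a gene for a lipid transfer protein, ran the other way. Its islands from 120 to 210 kb included 6 higher ones, with ratios from 1.19 to 1.99, and the last 2, at 314 and 320 kb, were lower, with ratios of 0.795 (0.651 to 0.973) and 0.701 (0.561 to 0.874). Lpp (chr16:24393350-24992578), a gene for a LIM protein of focal adhesions, alternated: 4 lower islands from 184 to 210 kb were followed by 5 higher ones from 228 to 371 kb and then 3 lower ones from 378 to 406 kb. Its summed ratio was 0.946 (0.907 to 0.988). The island at 371 kb had 149 mutant and 69 WT reads, and the island at 387 kb had 222 and 260.

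Rad51b (chr12:79297282-79848260), a gene of homologous recombination, held the most islands, 39. It had 9 lower and 7 higher islands and nearly equal sums, 200 mutant and 201 WT RPM, a ratio of 0.994 (0.968 to 1.02). Sema5a, a semaphorin gene, had 6 lower and 3 higher of 23 islands and a ratio of 0.976 (0.938 to 1.02). Aopep, an aminopeptidase gene, had 2 lower and 6 higher of 20 islands and a ratio of 1.04 (1.01 to 1.08). In these genes a sum near equality went with islands that moved both ways. At least 3 lower and 3 higher islands stood together in 11 genes: Rad51b, Lpp, Sema5a, Etl4, Foxn3, Tenm2, Mcc, Snx29, Scfd2, Snd1 and Arid1b.

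**Figure D4:**
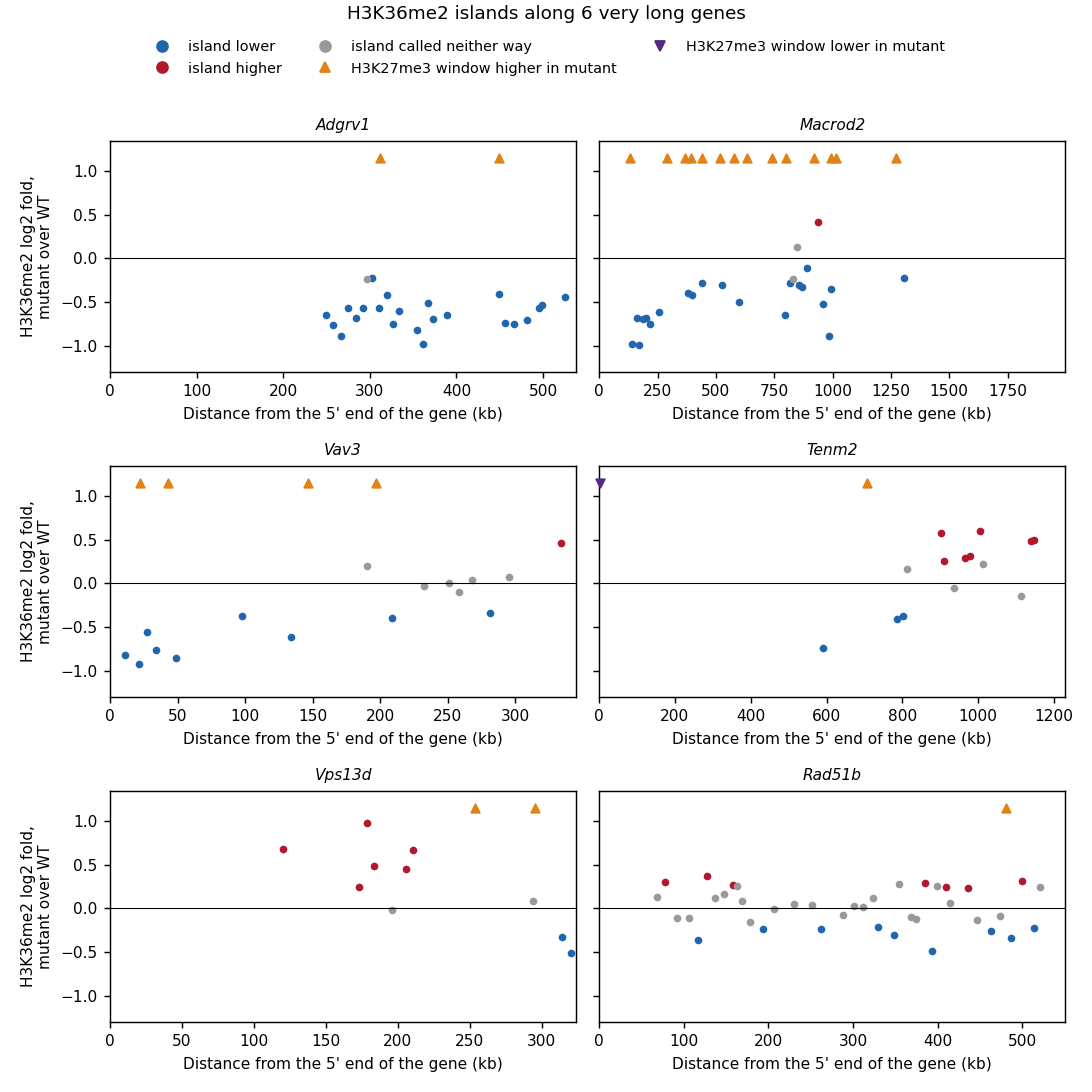
Deposited log2 fold of each H3K36me2 island (y axis, points coloured by call) against the distance from the 5′ end of the gene (x axis, kb) in Adgrv1, Macrod2, Vav3, Tenm2, Vps13d and Rad51b. Triangles at the top mark H3K27me3 windows called higher or lower in the mutant, of which Macrod2 has 14 and Vav3 has 4, all higher.

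By roles, the fragile site list had 12 genes with islands, and 77 of their 112 islands were lower (68.8%) and 8 higher (7.14%), with a median log2 fold of −0.40. Over all islands in very long genes the lower share was 61.3%, the higher share 13.6% and the median −0.31, and over the whole table the shares were 58.1% and 17.3%. Of the 12 genes, 10 were lower by summed reads and none higher, beside 67.3% and 6.83% of the 205 genes. Fhit and Dlg2 had every island lower, while Rad51b had not. Fhit, Dlg2, Macrod2 and Auts2 of this list span more than 1000 kb, and in genes of that length 83.7% of islands were lower. Role and gene length thus cannot be told apart here. Relative to the median island, 10 genes of this list were lower and 2 higher, beside 66 and 64 of the 205.

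The transcription regulators had 21 genes and 150 islands, with 68.7% lower, 11.3% higher and a median of −0.37, beside 61.3%, 13.6% and −0.31 in all very long genes. Besides Rora they include Maml2, a Notch coactivator gene, with 15 of 19 islands lower and a ratio of 0.844 (0.811 to 0.879). Nfia, a nuclear factor I gene, had 8 lower and 2 higher of 15 and a ratio of 0.872 (0.833 to 0.912). Relative to the median island, 7 genes of this list were lower and 7 higher, beside 66 and 64 of the 205.

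The kinase, phosphodiesterase and growth factor signalling list had 18 genes and 90 islands, with 75.6% lower and 4.44% higher, beside 61.3% and 13.6%, and a median of −0.45. Its genes included Inpp4b, a phosphoinositide phosphatase gene, with 8 of 9 islands lower and a ratio of 0.768 (0.722 to 0.818). Arhgap26, a GTPase activator gene, had 8 of 9 lower and a ratio of 0.741 (0.691 to 0.794), and Ror1, a WNT5A receptor gene, had 5 of 8 lower and a ratio of 0.840 (0.785 to 0.899). The ion channel and transmitter receptor list had 11 genes and 40 islands, with 72.5% lower, beside 61.3%, and a median of −0.43. Slc24a3, a sodium, potassium and calcium exchanger gene, had 10 of 11 islands lower and a ratio of 0.775 (0.733 to 0.820). The IP3 receptor genes, for calcium channels of the endoplasmic reticulum, had unlike values: Itpr1 had 7 of 8 lower and a ratio of 0.732 (0.685 to 0.781), and Itpr2 had 2 lower and 2 higher of 9 and a ratio of 1.02 (0.955 to 1.08).

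The adhesion, polarity and cytoskeleton list, with 38 genes and 227 islands, had 62.1% lower and 14.5% higher, close to the 61.3% and 13.6% of all very long genes, and a median of −0.36. Frmd4b, a gene for a scaffold of epithelial junctions, had 7 lower and 2 higher of 16 islands and a ratio of 0.892 (0.848 to 0.939). The trafficking, ubiquitin and housekeeping list had 28 genes and 201 islands, with 49.3% lower and 16.9% higher, beside 61.3% and 13.6%, and a median of −0.16, the smallest change of the 6 lists. Of its genes, Cmss1 had 11 lower and 2 higher of 22 and a ratio of 0.919 (0.886 to 0.953). However, 20 of the Cmss1 islands also lie in Filip1l and cannot be assigned to either gene. Babam2, a gene for a subunit of a BRCA1 complex, is in none of the 6 lists. It had 10 of 15 islands lower and a ratio of 0.867 (0.830 to 0.904). The lists were chosen with earlier results of these data known, overlap in a few genes, and were not tested. They were not matched for gene length, with which the lower share rose, so differences between lists cannot be told apart from length.

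For H3K27me3 the authors compared libraries rather than pools. H3K27me3 windows of 401 bp were called at the authors' FDR under 0.05 in their DiffBind comparison of 3 against 3 libraries, by which 15.2% of 18072 windows were lower in the mutant and 8.54% higher. Of the 4285 called windows, 1543 were higher and 2742 lower. In very long genes, more than 1 kb from a gene end, 343 windows were called, which fall into genes that held an H3K36me2 island and genes that held none. In genes with an island, 121 of 189 windows (64.0%) were higher in the mutant, and in genes without one 6 of 154 (3.90%) were. Of the 205 genes with an island, 69 had a higher window and 42 a lower one. Of the 328 genes without, 5 had a higher window and 97 a lower one. Without Macrod2, which had 14 higher windows and no lower one, the higher share in genes with an island was 61.1% of 175. The called windows also differed in starting level, with a WT median of 4.97 normalised reads in genes with an island and 47.3 in genes without. A window with few WT reads has little room to fall, so starting level and presence of an island cannot be told apart here. The difference between these sets of genes was not tested, since windows and genes are not replicates.

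The higher windows started from low levels. In genes with an island, the median of the higher windows was 12.7 normalised reads in the mutant and 2.67 in WT, and that of the lower windows was 11.7 and 35.6, in the authors' deposited table. Auts2 and Cep112 had 5 higher windows each and no lower one, and Vav3 had 4, all higher. Camta1 and Dab1 had the most lower windows among genes with an island, 6 and 5, and held 2 islands each.

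Within the islands themselves, 28 called H3K27me3 windows were found, of which 26 were higher in the mutant and 2 lower. The 22 windows in lower islands, spread over 19 genes, were all higher, with log2 folds of 1.08 to 1.94 in the authors' deposited table. Their WT median was 1.98 normalised reads, so these windows had little room to fall, and their shared direction is limited by this. Higher islands held none, and islands called neither way held 6, of which 4 were higher. In the 22 genes with every island lower, 27 of 30 windows were higher. In the 13 genes with more higher than lower islands, 8 of 9 windows were higher too, so higher windows were found in genes of both kinds. The WT medians of these 30 and 9 windows were also low, at 3.42 and 1.94 normalised reads.

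**Figure D5:**
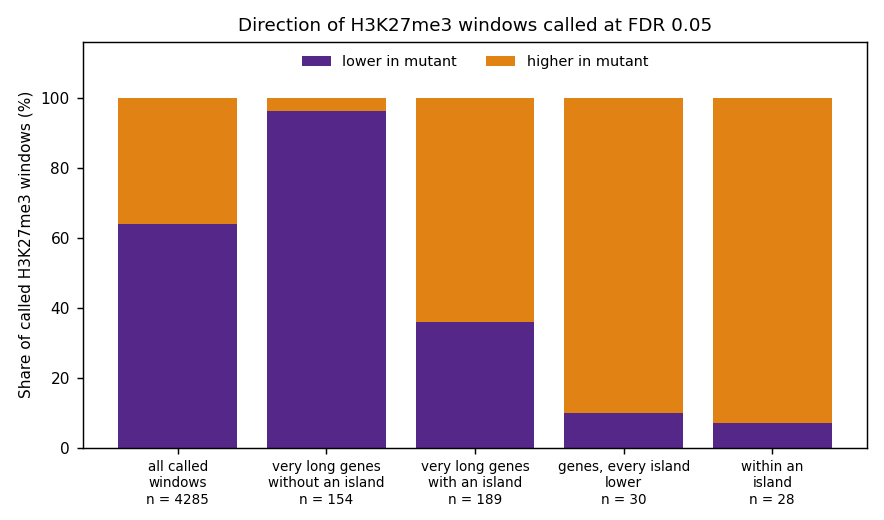
Share (y axis, percent) of H3K27me3 windows called at the authors' FDR under 0.05 that were lower or higher in the mutant, for all called windows and for 4 sets in genes of 300 kb or more (x axis, with the number of windows). The higher share was 3.90% in genes without an H3K36me2 island and 64.0% in genes with one. The called windows of these sets had WT medians of 47.3 and 4.97 normalised reads, in that order.

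The same DiffBind approach called no H3K36me2 window at FDR 0.05, in very long genes or elsewhere (0.00% of 18072 in each direction). The authors' deposited table lists 730 H3K36me2 windows with a nominal p under 0.05, of which 507 were lower in the mutant and 223 higher. With no difference at all, a nominal p under 0.05 would list more than 730 of 18072 windows on average. In very long genes, more than 1 kb from a gene end, 67 were listed, 47 lower and 20 higher. In genes with an island 45 of 56 were lower, and in genes without one 2 of 11 were lower and 9 higher. The 11 windows had low levels, with medians of 6.61 mutant and 2.15 WT normalised reads, beside 4.72 and 10.1 for the 56. Within the islands 19 were listed. The 18 lower windows all lay in islands called lower, and the 1 higher window, in Vps13d, lay in an island called higher. Windows and islands come from the same H3K36me2 libraries, so a window inside an island counts part of the reads of that island. The match in direction was thus largely fixed in advance and is not separate support. Across libraries, the change in H3K36me2 thus rests on nominal p-values only, in a list no longer than no change would give. The pooled reads carry no spread between libraries.

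In 14 very long genes, 15 windows were listed for both marks, and 14 of the 15 had opposite directions. In 6 the H3K36me2 window was lower and the H3K27me3 window higher, and in 8 the reverse. The share over windows of all genes is not given here, so these counts cannot be called particular to very long genes. For H3K36me2 these windows passed a nominal p under 0.05 only, and none passed FDR 0.05. The labels give the libraries of both marks the same 6 sample codes, so the tables may not be independent. The 3 that lay in islands were in Vav3 (chr3:109362700-109363100), Adgrv1 (chr13:81321760-81322160) and Macrod2 (chr2:140836801-140837201). In the Vav3 window, the authors' deposited table has 3.39 mutant and 9.55 WT normalised reads for H3K36me2 (nominal p = 0.0329, DiffBind) and 12.1 and 1.87 for H3K27me3 (FDR 0.00387). In the Adgrv1 window, the authors' deposited table has 6.35 and 15.4 for H3K36me2 (nominal p = 0.0302) and 7.90 and 1.94 for H3K27me3 (FDR 0.0491). In the Macrod2 window, the authors' deposited table has 3.40 and 9.34 for H3K36me2 (nominal p = 0.0497) and 9.62 for H3K27me3 in the mutant (FDR 0.00634), with WT at the floor of 1.

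Because the suspension was not sorted by the labels, other cells of the skin may have been present. An H3K36me2 island lay within 5 kb of 6 of 8 keratinocyte marker genes, including Krt14 and Krt5, and of 3 of 5 melanocyte, 1 of 4 immune, none of 3 fibroblast and 3 of 3 endothelial marker genes. An island near a gene does not measure its expression, and the part of other cells in these results was not tested. The labels' tissue, epidermis, therefore cannot be checked further from this mark.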

How the data were processed

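CUT&RUN libraries for IgG, H3K36me2 and H3K27me3 came from mouse epidermis, with 18 libraries in 6 groups of 3, per the labels. The submitters' processing notes name Bowtie2, SICER, DiffBind and DESeq2, without versions, and the builds GRCm38 and mm10, and the labels give paired reads of 37 bp. The IgG libraries were not analysed here. For each H3K36me2 island the authors deposited a read count per genotype, a normalised value that was checked to be RPM, a ratio (fold, with 1 read added to each count) and, for either direction, a p-value with its FDR, as the file headers show. The merging of the 3 libraries was not given in the sources used here. For windows of 401 bp the authors deposited log2 means, a log2 fold and an FDR beside its p-value. Where the DiffBind fold is shrunken, the means are printed, as normalised reads converted from log2.

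Depths of 59539924 mutant and 47361190 WT reads were computed from count and RPM. Positions are 1-based on GRCm38, and genes, strands and promoters come from RefSeq GRCm38.p6 tables, with 21900 protein-coding genes. Exons and introns were not annotated here. No promoter of chromosome 18 is in the table used, and strand was known for 158 of the 205 genes. Distances were taken to island midpoints for positions along a gene. An island in several genes was counted once in island totals and in the gene or genes of 300 kb or more it overlaps. Exact 2-sided binomial tests at these depths used the Benjamini-Hochberg adjustment over all islands or genes and were tested on simulated pools. Shares carry Clopper-Pearson 95% intervals and ratios exact binomial 95% intervals, which cover counting error only, since PCR copies are not independent molecules. The libraries are pooled, so p-values measure the reads of the pools and not the spread between animals.

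Named genes were the 12 with most islands, the 5 lowest and 5 highest ratios among genes with at least 4 islands, up to 4 per list by number of islands, and the genes of the 5 lowest and 5 highest islands. Of these, 1 gene is not reported here. The named internal starts, Tenm2 and the genes with H3K27me3 windows were singled out after their values were seen. The members, lists and rules were chosen with earlier results of these data known. Python 3.11.15, numpy 2.4.6, pandas 2.3.3, scipy 1.17.1, statsmodels 0.14.6 and matplotlib 3.10.9 were used. Alternatives were a stricter FDR, another test, median scaling, other gene length and distance limits, whole containment, filters on reads and width, single-gene islands, leaving out the gene with most islands, no added read and 1 value per gene.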

Additional observations from a re-analysis of the deposited data

How the results depend on the processing

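Relative to the median island, the counts of lower and higher islands went from 701 and 155 to 159 and 282, the median log2 fold from −0.31 to −0.015, and the lower and higher genes from 138 and 14 to 66 and 64. The exact binomial test gave 79 higher islands. With genes of 200 kb or more, 343 islands were higher, the median was −0.24, its difference from shorter genes −0.23 in place of −0.28, and 223 genes were lower and 48 higher. With genes of 500 kb or more, 333 islands were lower and 45 higher, the median was −0.45, the difference from shorter genes −0.39, and 64 genes were lower and 3 higher. In these genes the difference between islands far from and near to a gene end reversed, from −0.12 to 0.035. The length limits change which islands are counted, and the cause of the reversal was not tested. With 1 median per gene, an alternative chosen after seeing the data, the median was −0.37. The other alternatives kept each value within its 95% interval and each count within 1.5 times. Those intervals do not cover the spread between animals, and islands of one gene are not independent. Leaving out single replicates was not possible, because the table holds 1 pool per genotype. No paired analysis was possible because no sample code occurs in both genotypes and the columns carry no replicate. At a median of 175 mutant and 171 WT reads an island, counting error alone is 0.157 on the log2 scale, which limits calls of small changes.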
